A study of Caenorhabditis elegans with 13 samples.

Results

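Histone genes were taken as every gene of the deposited expression table whose name begins with *his-* or *hil-*, together with *htz-1*, *hcp-3* and *cpar-1*. The rule gave 83 genes of 46170 in the table, and all 83 were found by gene ID in the WBcel235 annotation as protein-coding genes. They comprised 64 core histone genes (17 H2A, 16 H2B, 15 H3 and 16 H4), 9 linker histone genes, 8 variant histone genes and 2 genes with short open reading frames, *his-39* and *his-73*, that were placed in no class. The coding length in the annotation was 103 codons for every H4 gene, 136 for every H3 gene and 122 or 123 for the H2B genes. H2A genes had 127, apart from longer models of *his-57*.

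Expression was measured by mRNA-seq of poly(A) RNA from hermaphrodite L1 larvae that hatched without food and were then fed OP50 for 3 hours. The control group was wild type (N2) on control vector RNAi, with 3 libraries. The others were N2 on DPY-27 RNAi (4 libraries, the RNAi group), the *cec-4(ok3124)* strain RB2301 on vector RNAi (3 libraries) and the *met-2(n4256) set-25(n5021)* strain EKM99 on vector RNAi (3 libraries), also called the double mutant here. Both mutants are thus compared with N2, and whole larvae of mixed tissues were sequenced. MET-2 and SET-25 methylate lysine 9 of histone H3, CEC-4 holds chromatin with this mark at the nuclear periphery, and DPY-27 is a subunit of the dosage compensation complex. The comparisons ask what weakening each of these does to gene expression, and histone genes are described here across them.

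Core histones H2A, H2B, H3 and H4 form the nucleosome, and linker histone H1 binds the DNA between nucleosomes. Most core histone genes of animals are multicopy, lack introns and are used in S phase, and their mRNAs end in a stem-loop in place of a poly(A) tail. Replacement variants such as H3.3 and H2A.Z are made outside S phase as well, from ordinary spliced and polyadenylated mRNAs, and CENP-A takes the place of H3 at centromeres. Selection of poly(A) RNA therefore keeps little of the stem-loop mRNAs, and the levels below are those of polyadenylated RNA, not of all histone mRNA. Stem-loops were not searched for here.

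The unit is FPKM, fragments per kilobase of transcript scaled to the mapped fragments of a library, so that levels can be compared between genes. Each value is the authors' mean of a group. No value per library was used, so no spread between replicates can be given and no test was made. The depth is unknown from these values. Differences are given as log2 ratios of mean FPKM plus 1 over the control, a scale that understates changes of weakly expressed genes. Those of summed levels are taken without the added 1. Past 1.5-fold in either direction is used as a mark of size only. Over the 16438 genes with an average above 1 FPKM in the 4 groups, the median log2 ratio was 0.038 in the group labelled *dpy-27(RNAi)*, 0.10 for the *cec-4* mutant and 0.048 for the double mutant. The 3 comparisons share the same control libraries, so a high or low control moves all of them.

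The labels were checked on the targeted genes and on tissue markers. *cec-4* itself was at 18.2 FPKM in the control and 7.02 in the *cec-4* mutant, and *set-25* at 8.93 and 4.15 in *met-2 set-25*. *met-2* was at 17.6 and 13.7. *dpy-27* was at 32.3 FPKM in the control and 31.6 in the group labelled *dpy-27(RNAi)*, so these values show no reduction of its mRNA. In that group the 2763 genes on X above 1 FPKM had a median log2 ratio of 0.15 and the 13501 on the autosomes one of 0.017, the direction its label would give. The median on X was also the higher one in the *cec-4* mutant (0.22 beside 0.073) and the double mutant (0.14 beside 0.026). DPY-27 protein was not analysed here. Markers of muscle, pharynx, intestine and neurons were all present, with averages of 17.7 FPKM or more. The hypodermal collagen gene *dpy-7* averaged 0.827 FPKM while *lin-26* averaged 90.4. The adult yolk genes *vit-2* and *vit-6* and the sperm genes *msp-142* and *spe-11* all averaged below 0.24 FPKM, and the oocyte genes *oma-1* and *rme-2* averaged 1.35 and 1.59 FPKM. Against the control, the pharyngeal myosin genes *myo-1* and *myo-2* were past 1.5-fold higher in the RNAi group and the double mutant, and the muscle myosin gene *myo-3* in both mutants. Their part in the results below was not tested.

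Only 25 of the 83 histone genes averaged above 1 FPKM, and 32 were listed at 0 in every group. Over all 19617 protein-coding genes of the annotation in the table, 67.2% were above 1 FPKM and 3.68% were listed at 0. None of 69 ribosomal protein genes was at 0. Those above 1 FPKM were 7 of 9 linker, 6 of 8 variant and 11 of 64 core genes, and *his-73* (average 1.27 FPKM). All 32 genes at 0 were core genes, 10 of H2A, 10 of H2B, 5 of H3 and 7 of H4.

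Among core histones, the level followed the structure of the gene. A trio of core genes has an intron in every annotated model: *his-35* (H2A), *his-41* (H2B) and *his-37* (H4). They lie next to each other on chromosome V, from 9544659 to 9547607 in WBcel235, and carry 114 to 143 annotated transcribed bases outside the coding sequence. Their summed level was 1125 FPKM in the control, 958 in the group labelled *dpy-27(RNAi)*, 1013 in the *cec-4* mutant and 876 in the double mutant. This was 97.3%, 97.9%, 98.3% and 97.0% of all core histone FPKM in the same order. The other 61 core genes have a single-exon model, and for 60 of them no base outside the coding sequence is annotated. Of the 61, 8 averaged above 1 FPKM, and the highest average was 3.20 FPKM (*his-60*, an H4 gene). In every group, the lowest of the trio was above the highest single-exon copy.

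**Figure D1:**
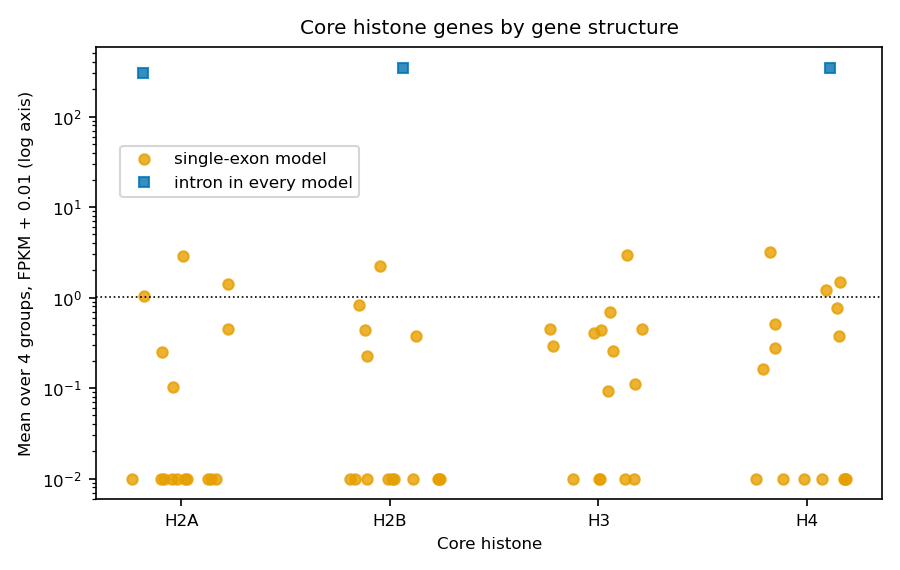
Average over the 4 groups (FPKM plus 0.01, log axis) of each of the 64 core histone genes, by histone. Squares are the 3 genes with an intron in every model, circles the 61 genes with a single-exon model, and the dotted line marks 1 FPKM. The squares stand at 302 FPKM or more, the highest circle is at 3.20 FPKM, and the 32 circles at the bottom are listed at 0.

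The single-exon copies differed by how they are named. The annotation gives 36 core genes a name that another gene ID of the list also carries. None of these 36 averaged above 1 FPKM and 31 were listed at 0 in all groups. Of the 28 core genes with a name of their own, 11 averaged above 1 FPKM and 1 was listed at 0. These 28 include the spliced trio. The other 25 have a single-exon model, and 8 of them averaged above 1 FPKM. The authors aligned 50-base reads, allowed several hits per read and describe dividing such reads among copies. The value of a single repeated copy is thus uncertain. Of the 3 gene IDs that share the name *his-9*, *his-25* averaged 0.392 FPKM and *his-9* and *his-13* were at 0. An even division does not show in these values. How alike the copies are in sequence was not analysed here.

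Core histone genes sit in runs. With starts no more than 5000 bases apart, 67 of the 83 genes formed 15 runs of 2 to 13 genes, and 16 lay alone. The run of 13 on chromosome II, from 13817760 to 13828697, had no gene above 1 FPKM. The trio on chromosome V was the only run in which every gene was above 1 FPKM. Members above 1 FPKM were 2 of 4 on chromosome I, 1 of 14 on II and 3 of 5 on III. They were 8 of 25 on IV, 7 of 30 on V and 4 of 5 on X. Those on X were the linker genes *his-24* and *hil-3*, the variant gene *his-71* and the core gene *his-38*. The share of all genes above 1 FPKM on each chromosome was not worked out, so nothing is read from these counts.

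H3 was the exception among the core histones, since none of its 15 core genes has an intron. Their summed level was 9.22 FPKM in the control, 4.50 in the group labelled *dpy-27(RNAi)*, 4.09 in the *cec-4* mutant and 6.31 in the double mutant. The 5 H3.3-like genes together had 806, 775, 784 and 886 FPKM in the same order, 87.4 to 192 times as much. As listed, the FPKM of H2A, H2B and H4 was thus mostly that of 1 spliced gene each and the FPKM of H3 mostly that of H3.3-like genes. With so many repeated copies at 0, how much the multicopy genes contributed is not settled by these sums.

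**Figure D2:**
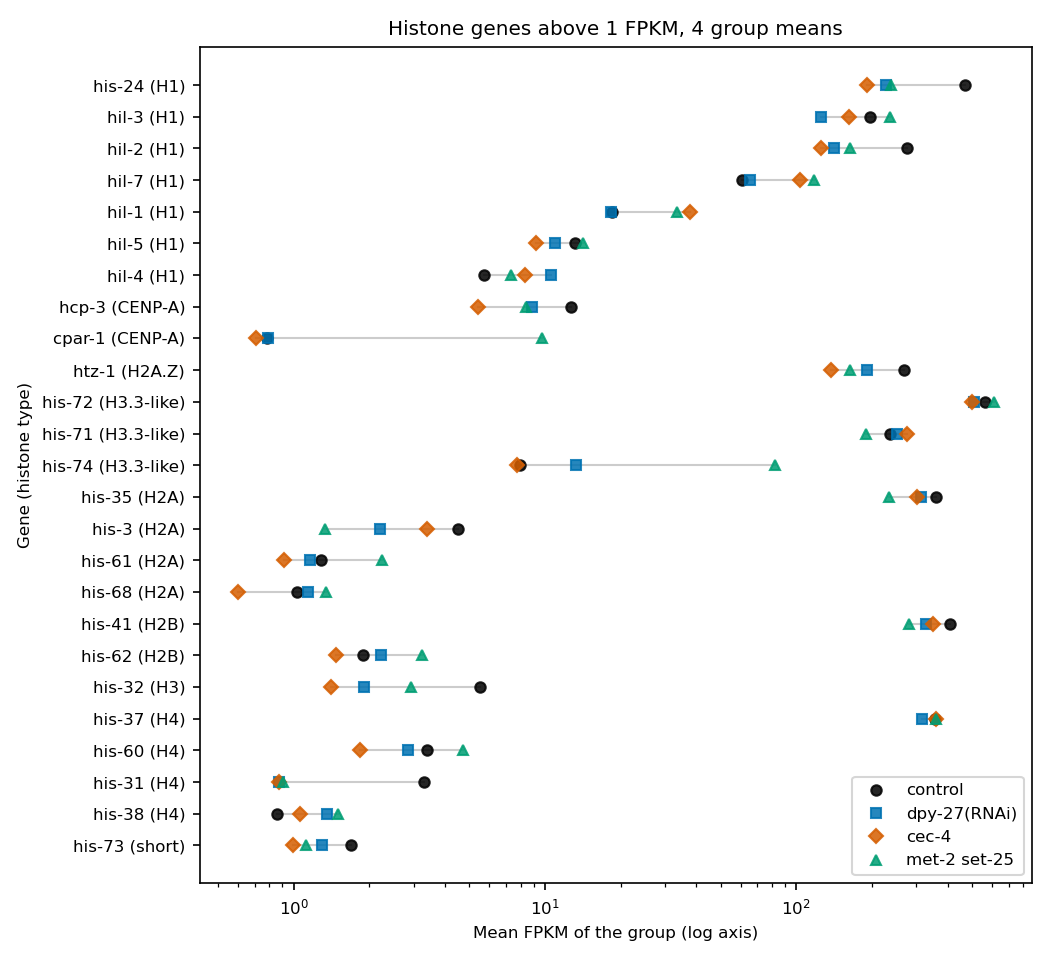
Mean FPKM (log axis) of the 25 histone genes with an average above 1 FPKM, in the control (circles), the group labelled *dpy-27(RNAi)* (squares), *cec-4* (diamonds) and *met-2 set-25* (triangles). The grey line joins the lowest and highest group mean. The control is the highest point for *his-24*, *hil-2*, *htz-1* and *hcp-3*, and *met-2 set-25* stands alone for *his-74* and *cpar-1*.

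In the group labelled *dpy-27(RNAi)*, 2 of the 25 histone genes were past 1.5-fold higher and 6 past 1.5-fold lower, which is 32% of them against 17.8% of all 16438 genes. By direction, 10.7% of all genes were past 1.5-fold higher and 7.13% lower. In *cec-4*, 2 members were higher and 7 lower (36%, against 28.0% of all genes, 18.2% higher and 9.89% lower). In *met-2 set-25*, 4 were higher and 7 lower (44%, against 32.6% of all genes, 18.1% higher and 14.4% lower). The median log2 ratio of the 25 genes was -0.19, -0.26 and 0.097 in the same order. Through 1 group alone, *cpar-1* (counted higher in *met-2 set-25*) and *his-31* (counted lower in all 3) entered the list, so their direction was fixed by the filter. The list is small and its error unknown, and nothing particular to histone genes is read from it.

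**Figure D3:**
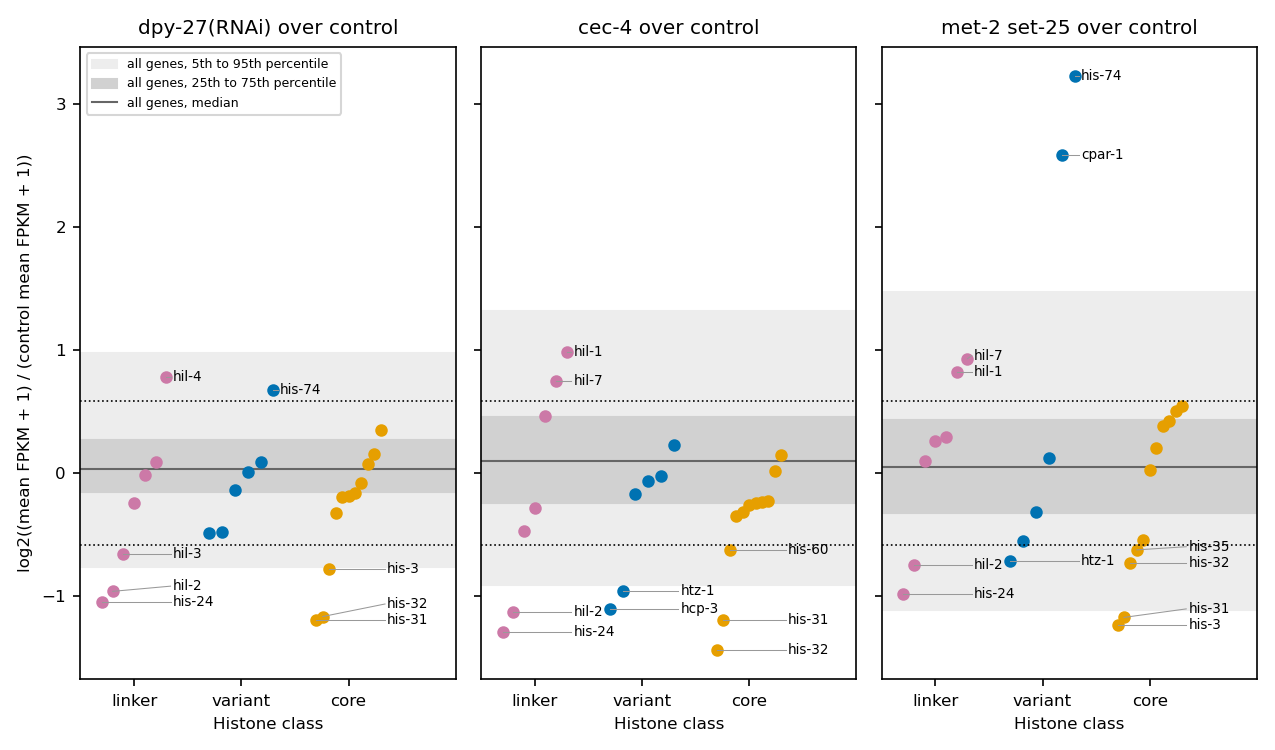
Log2 ratio of mean FPKM plus 1 over the control for the linker, variant and core genes with an average above 1 FPKM (24 points per panel, *his-73* not drawn, points past 1.5-fold named), in the 3 comparisons. Shaded bands hold the middle 50% and 90% of all 16438 genes, the grey line is their median and dotted lines mark 1.5-fold. *his-24* lies below the wider band in the left and middle panels, and *his-74* and *cpar-1* lie far above it for *met-2 set-25* only.

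Linker histones moved apart from each other. *his-24*, on X from 14490094 to 14491119, encodes the most abundant H1 of the list in the control and is known in *C. elegans* for a part in germline silencing. Its mean was 470 FPKM in the control, 227 in the group labelled *dpy-27(RNAi)*, 191 in the *cec-4* mutant and 238 in the double mutant. The control stands above the other 3 groups, which lie between 191 and 238 FPKM. The log2 ratios were -1.05, -1.29 and -0.98, and the first 2 ranked 506th and 479th from the bottom of 16438 genes. The libraries are not stranded, and the antisense noncoding gene M163.16, which overlaps an exon of *his-24*, had 185, 80.7, 87.4 and 89.8 FPKM. Reads of the pair cannot be told apart, so the level of *his-24* is uncertain.

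*hil-2* followed a similar order. Its mean was 276 FPKM in the control, 141.6 in the group labelled *dpy-27(RNAi)*, 126 in the *cec-4* mutant and 164 in the double mutant, with log2 ratios of -0.96, -1.13 and -0.75. The control was again the highest group. *hil-3* on X had 197, 125, 162 and 237 FPKM and was past 1.5-fold lower only in the RNAi group (-0.65). The *met-2 set-25* mean was above the control (0.26).

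Other linker genes were higher in the mutants. *hil-1* had 18.5 FPKM in the control, 18.3 in the group labelled *dpy-27(RNAi)*, 37.6 in the *cec-4* mutant and 33.6 in the double mutant (log2 ratios -0.016, 0.98 and 0.83). *hil-7*, whose annotated models are short at 39 to 66 codons, had 61.1, 65.2, 103 and 117 FPKM (0.094, 0.75 and 0.93). For both, the 2 mutants were past 1.5-fold higher and the RNAi group was near the control. *hil-4* had 5.74, 10.6, 8.29 and 7.29 FPKM and was past 1.5-fold higher in the RNAi group (0.78).

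The remaining linker genes were low. *hil-5* had 13.1, 10.97, 9.22 and 14.1 FPKM, within 1.5-fold of the control in every group. *hil-6* and *hil-8* averaged 0.927 and 0.766 FPKM, just under the 1 FPKM limit, with *his-4* at 0.810. Just over it were *his-68* (1.03 FPKM), *his-38* (1.19 FPKM) and *his-73*.

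Summed over the 9 linker genes, the level was 1044 FPKM in the control, 600.3 in the group labelled *dpy-27(RNAi)*, 639 in the *cec-4* mutant and 813 in the double mutant. The sums were 0.575, 0.612 and 0.779 times the control. Over all genes of the table, summed FPKM was lower as well, at 1.226e+06 in the control and 1.209e+06, 1.129e+06 and 1.071e+06 in the others. Ratios of sums given here are not corrected for this. *his-24* made up 45.0% of linker FPKM in the control and 37.8%, 30.0% and 29.2% in the others. Without *his-24*, the log2 ratio of the sum in *met-2 set-25* was 0.0044 in place of -0.36.

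**Figure D4:**
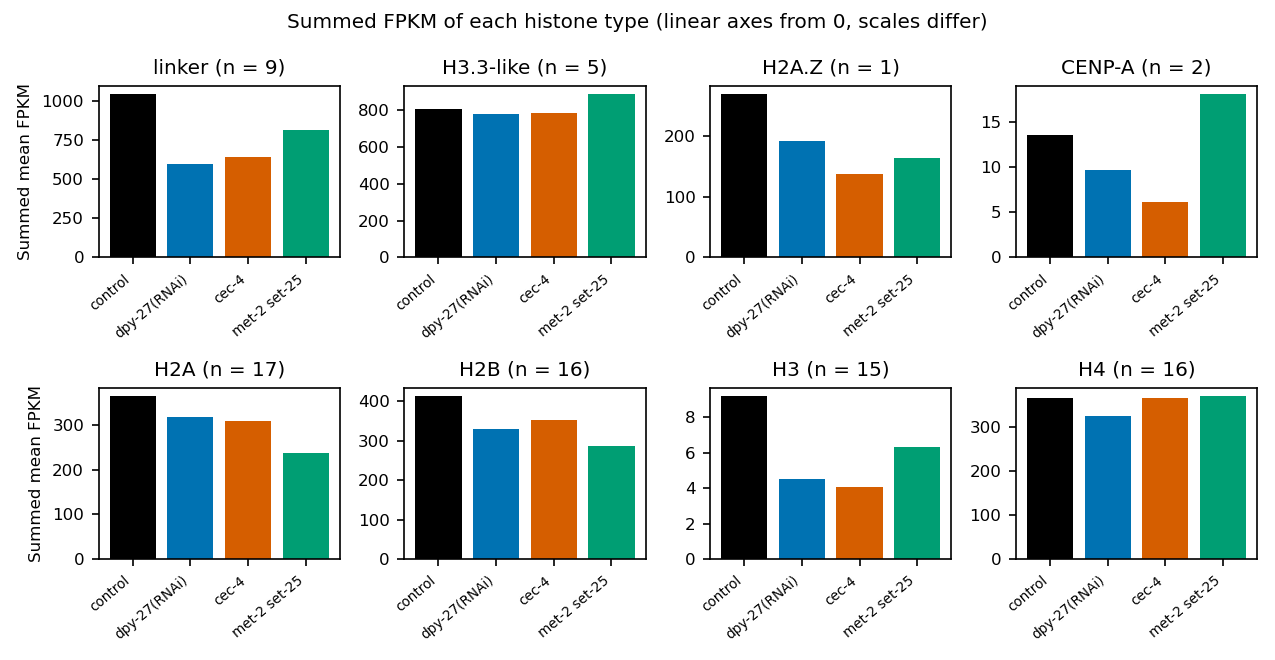
Summed mean FPKM of each histone type in the control, the group labelled *dpy-27(RNAi)*, *cec-4* and *met-2 set-25* (bars, linear axes from 0 with a scale of their own). The linker and H2A.Z bars are tallest in the control, the H3.3-like bars differ little (775 to 886 FPKM), and the CENP-A bar is tallest in *met-2 set-25* (18.1 FPKM).

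H2A.Z and the main CENP-A gene were lower than the control. *htz-1*, the only H2A.Z gene, on chromosome IV from 4446216 to 4446999, had 268 FPKM in the control, 192 in the group labelled *dpy-27(RNAi)*, 138 in the *cec-4* mutant and 163 in the double mutant. Its log2 ratios were -0.48, -0.96 and -0.71, past 1.5-fold in the mutants. In the double mutant it came within 1.5-fold (-0.56) once centred on genes of its level, 100 to 1000 FPKM. *hcp-3*, which encodes the CENP-A protein needed at the holocentric kinetochore, had 12.7, 8.84, 5.41 and 8.39 FPKM (-0.48, -1.10 and -0.55), past 1.5-fold in *cec-4*. The double mutant also passed it once ratios were centred on the median of all genes (-0.60). For both, the control was highest and *cec-4* lowest. *hcp-3* overlaps an exon of F58A4.6 on the other strand, which had 12.2, 11.1, 9.88 and 7.03 FPKM.

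The sum of the H3.3-like genes differed little between groups, as given above. *his-72*, on chromosome III, was the histone gene with the highest average, at 562 FPKM in the control, 511 in the group labelled *dpy-27(RNAi)*, 500 in the *cec-4* mutant and 613 in the double mutant. *his-71*, on X, had 236, 251, 276 and 189 FPKM. Neither was past 1.5-fold in any comparison. The ratio of *his-72* to *his-71* was 2.38 in the control, 2.04 and 1.81 in the next 2 groups and 3.25 in *met-2 set-25*. *his-69* and *his-70*, neighbours on chromosome III, averaged 0.204 and 0.393 FPKM.

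The largest difference of any histone gene was that of *his-74* in *met-2 set-25*. *his-74*, an H3.3-like gene on chromosome V from 12659704 to 12660330, had 7.91 FPKM in the control, 13.3 in the group labelled *dpy-27(RNAi)*, 7.76 in the *cec-4* mutant and 82.6 in the double mutant. The log2 ratio in *met-2 set-25* was 3.23, the 157th highest of 16438 genes. In the group labelled *dpy-27(RNAi)* it was 0.68, and in *cec-4* -0.025. *his-74* made up 9.33% of H3.3-like FPKM in *met-2 set-25* and 0.982% to 1.71% elsewhere.

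*cpar-1*, a second CENP-A gene, on chromosome III from 9434057 to 9435100, had 0.783 FPKM in the control, 0.793 in the group labelled *dpy-27(RNAi)*, 0.710 in the *cec-4* mutant and 9.70 in the double mutant. Its log2 ratio of 2.58 in *met-2 set-25* was the 288th highest, and it was above 1 FPKM on average through that group alone. It therefore had to be higher there, and neither its rank nor its place in the counts above is a result. In *met-2 set-25*, *cpar-1* exceeded *hcp-3* (ratio of *hcp-3* to *cpar-1* 0.865), whereas *hcp-3* was 7.62 to 16.3 times higher in the other groups. The sum of both CENP-A genes was 13.5, 9.63, 6.12 and 18.1 FPKM.

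The gene nearest to each of *his-74* and *cpar-1* was near the control level in *met-2 set-25*. Next to *his-74*, *ccch-3* ends 17 bases away and had 14.3 FPKM in the control and 15.7 in *met-2 set-25*. On its other side, W05B10.3 was listed at 0 in every group. Next to *cpar-1*, *emb-30* lies 407 bases away and had 21.3 FPKM in the control and 21.2 in *met-2 set-25*. On the other side, T26G10.5 lies 7656 bases away and was lower (23.8 and 14.9 FPKM, log2 ratio -0.64). Genes beside other members differed. *wapl-1*, 476 bases from *htz-1*, had 50.7, 44.1, 32.9 and 35.6 FPKM, the same order of groups as *htz-1*, and *chat-1* on its other side had 173, 163, 227 and 191 FPKM. M163.8, which lies 4139 bases from *his-24*, had 3.98, 13.3, 19.9 and 8.72 FPKM, against the direction of *his-24*, and the neighbours of *hil-2* were all below 1 FPKM.

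The markers listed for primordial germ cells were also higher in *met-2 set-25*. *glh-1* had 25.5 FPKM in the control, 26.8 in the RNAi group, 17.4 in the *cec-4* mutant and 168 in the double mutant. *pgl-1* had 3.45, 7.51, 4.55 and 25.03 FPKM in the same order. *cpar-1* had to be higher in *met-2 set-25*, so its rise together with these markers is no result. Both markers (2 of 2) were past 1.5-fold higher in *met-2 set-25*, beside 18.1% of all genes. Their summed levels were 29.0, 34.3, 22.0 and 193 FPKM. *pgl-1* was also past 1.5-fold higher in the RNAi group (log2 ratio 0.94), where 10.7% of all genes were. The part of these markers in the level of *his-74* was not tested. In whole larvae, more or fewer cells of a type and more or less RNA per cell cannot be told apart.

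The spliced core trio differed less. *his-35* (H2A) had 359 FPKM in the control, 313 in the group labelled *dpy-27(RNAi)*, 303 in the *cec-4* mutant and 233 in the double mutant, and was past 1.5-fold lower in the last (log2 ratio -0.62). Of the 1203 genes at 100 to 1000 FPKM, 24.5% were past 1.5-fold lower there and the median log2 ratio was -0.15. Centred on those genes, *his-35* was at -0.47, within 1.5-fold. *his-41* (H2B) had 410, 327, 349 and 282 FPKM (-0.33, -0.23 and -0.54), and *his-37* (H4) had 356, 317, 361 and 361 FPKM (-0.16, 0.019 and 0.022). In *met-2 set-25* the H2A and H2B genes were thus below the control and the H4 gene level with it. *his-41* overlaps C50F4.6 on its strand (38.4, 21.6, 17.8 and 16.5 FPKM) and *his-37* overlaps *nstp-10* on the other strand (25.9 to 35.0 FPKM).

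Of the 8 single-exon core genes above 1 FPKM, *his-3*, *his-31*, *his-32* and *his-60* were past 1.5-fold lower in at least 1 comparison and none was higher. In each comparison 3 of the 8 were lower, beside 10.9%, 11.5% and 15.0% of all genes at 1 to 5 FPKM. With 0.1 FPKM added in place of 1, *his-61* (0.76), *his-62* (0.74) and *his-38* (0.74) were also past it, higher in *met-2 set-25*. So were *his-38* in the RNAi group (0.61, higher) and *his-68* in *cec-4* (-0.70, lower). *his-31* (H4) and *his-32* (H3) lie side by side on chromosome IV between 8333672 and 8334715. *his-31* had 3.29 FPKM in the control and 0.876, 0.877 and 0.903 in the others (-1.19, -1.19 and -1.17). It averaged above 1 FPKM through the control alone, so it had to be lower in the others, and its place in the counts above is no result. *his-32* had 5.51 FPKM in the control and 1.91, 1.40 and 2.94 in the others (-1.16, -1.44 and -0.73). The control was the highest group for both. *his-3* (H2A) had 4.48, 2.201, 3.41 and 1.33 FPKM (-0.78, -0.32 and -1.23). These levels are low, and their error is not known.

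Genes of the run *his-59* to *his-62* on chromosome IV had another order. *his-60* (H4) had 3.38, 2.84, 1.84 and 4.73 FPKM, with a log2 ratio of -0.62 in the *cec-4* mutant and 0.39 in the double mutant. *his-61* (H2A) had 1.28, 1.16, 0.910 and 2.25 FPKM, and *his-62* (H2B) 1.89, 2.23, 1.48 and 3.23 FPKM. *his-59* (H3) averaged 0.678 FPKM and *his-2* (H3) 0.442 FPKM. In each of *his-60*, *his-61* and *his-62*, *met-2 set-25* was the highest group and *cec-4* the lowest. Over all 61 single-exon copies, the sum was 31.1 FPKM in the control, 20.5 in the group labelled *dpy-27(RNAi)*, 17.5 in the *cec-4* mutant and 26.997 in the double mutant. In the RNAi group 23 of the 61 copies were lower than the control, 6 higher and 32 equal. Of the 9439 protein-coding genes averaging 5 FPKM or less, 33.8% were lower, 55.8% higher and 10.4% equal. In *cec-4* 21 copies were lower and 8 higher (30.6% and 58.4% of those genes). In *met-2 set-25* 13 were lower and 16 higher (37.2% and 51.3%). The 32 equal copies in each comparison are those listed at 0 in every group, and they remain in the 61. By the authors' description, reads with several hits are divided among copies, so the copies are not taken as separate measurements. How reads were in fact divided is not known from these values.

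Replication-dependent histone genes are used in S phase, and 14 S phase genes were set beside them. Like the list of histone factors below, these were chosen with earlier results of these data known. In the group labelled *dpy-27(RNAi)*, 8 of 14 were past 1.5-fold lower and none higher (median log2 ratio -0.61). In *cec-4* it was 12 lower (median -1.33) and in *met-2 set-25* 11 lower (median -1.06), with none higher in either. Of all genes, 7.13%, 9.89% and 14.4% were past 1.5-fold lower. The lowest in *cec-4* was *mcm-7*, a subunit of the replicative helicase, with 37.7 FPKM in the control, 20.02 in the group labelled *dpy-27(RNAi)*, 9.59 in the *cec-4* mutant and 13.3 in the double mutant. *pcn-1*, which encodes the replication clamp PCNA, had 134, 80.1, 41.1 and 45.1 FPKM. The least changed in *cec-4* was the licensing factor gene *cdc-6*, with 21.1, 17.2, 15.7 and 14.1 FPKM.

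The other S phase genes past 1.5-fold followed the same order of groups. The helicase genes *mcm-2* to *mcm-6* had log2 ratios from -0.68 to -0.43 in the group labelled *dpy-27(RNAi)*, from -1.52 to -1.07 in *cec-4* and from -1.20 to -0.91 in *met-2 set-25*. The ribonucleotide reductase genes *rnr-1* and *rnr-2* had -0.60 and -0.70, then -1.31 and -1.35, then -1.05 and -1.16. The primase gene *pri-1* had -0.68, -1.51 and -1.42, the licensing gene *cdt-1* -0.58, -0.99 and -0.90, and *rpa-1*, for the single-strand binding protein, -0.32, -0.70 and -0.53. *cec-4* was the lowest group for each of these.

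The 15 factors examined next process histone mRNA or carry histones, and 14 of them averaged above 1 FPKM. The other, *asfl-1*, averaged 0.779 FPKM. In the group labelled *dpy-27(RNAi)* 2 of 14 were past 1.5-fold lower, 7 in the *cec-4* mutant and 6 in the double mutant, and none was higher. Of all genes, 7.13%, 9.89% and 14.4% were past 1.5-fold lower, and a count of 2 in 14 is near that background. The medians were -0.23, -0.65 and -0.48. *cdl-1*, which encodes the protein that binds the stem-loop of histone mRNAs, had 45.2 FPKM in the control, 28.8 in the group labelled *dpy-27(RNAi)*, 17.9 in the *cec-4* mutant and 22.4 in the double mutant. *chaf-2*, for a subunit of the replication-coupled assembly factor CAF-1, had 24.4, 14.7, 7.98 and 8.98 FPKM.

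The CAF-1 subunit gene *chaf-1* had log2 ratios of -0.41 in the RNAi group, -1.002 in the *cec-4* mutant and -0.88 in the double mutant. The H3-H4 binding gene *lin-53* had -0.52, -1.22 and -0.98, and its relative *rba-1* had -0.19, -0.80 and -0.41. The Asf1 gene *unc-85* had -0.36, -0.92 and -0.77, and *knl-2*, needed to load CENP-A, had -0.42, -0.72 and -0.60. *cec-4* was the lowest group for each of these. The highest ratios of the list were small. They were 0.18 for the nucleosome assembly gene *nap-1* in the RNAi group (831 FPKM in the control, 944 there), 0.049 for *ssl-1*, a relative of remodellers that deposit H2A.Z, in *cec-4* (57.9 and 59.9 FPKM), and 0.064 for the FACT subunit gene *hmg-3* in *met-2 set-25* (4.17 and 4.405 FPKM). The 7 genes of the list that were not past 1.5-fold lower, *nap-1*, *ssl-1* and *hmg-3* among them, were within 1.5-fold in every comparison. The part of S phase genes in the levels of *his-24*, *hil-2*, *htz-1* and *hcp-3* was not tested.

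**Figure D5:**
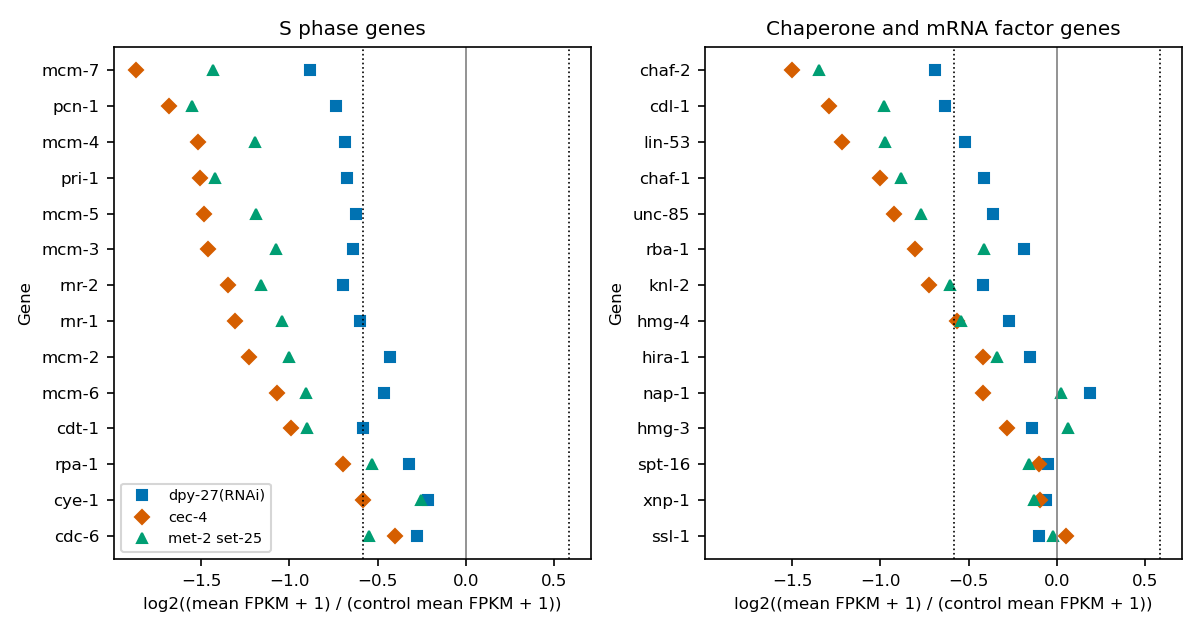
Log2 ratio of mean FPKM plus 1 over the control for the 14 S phase genes and the 14 chaperone and mRNA factor genes above 1 FPKM, in the group labelled *dpy-27(RNAi)* (squares), *cec-4* (diamonds) and *met-2 set-25* (triangles). Dotted lines mark 1.5-fold. All S phase points lie below 0, with medians of -0.61, -1.33 and -1.06.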

How the data were processed

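The authors aligned trimmed single-end reads to *C. elegans* genome version WS235 with TopHat2 2.0.13. They computed expression with Cufflinks 2.2.1, dividing reads with several hits among their sites. The deposited table gives FPKM values that the authors averaged over the libraries of a group. Their second table, which holds log2 fold changes and adjusted p-values of their own comparisons, was not used. No per-library column was used (0 columns). Genes were placed by ID with the Ensembl release 115 annotation of WBcel235. Core histone types were assigned by name and checked against coding length.

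Ratios were computed as log2 of mean FPKM plus 1 over the control, for genes with an average over the 4 groups above 1 FPKM. Ratios of sums were taken over all genes of a class, with nothing added. No test was made. Genes named are every linker and variant histone gene and *his-73*, the 3 highest copies of each core histone, every member past 1.5-fold, the 3 members on either side of 1 FPKM, and list genes past 1.5-fold or at the extremes. Genes that overlap or neighbour a member were named after their values were seen. The members and lists were chosen with earlier results of these data known. Ratios were tested on simulated data. Python 3.11.15, numpy 2.4.6, pandas 2.3.3 and matplotlib 3.10.9 were used.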

Additional observations from a re-analysis of the deposited data

How the results depend on the processing

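With only group means, leaving out a library was not possible and no error is known. No paired analysis was possible because the values carry no replicate numbers. Sums over identical proteins and the stem-loop search were not run, for want of sequences. The cause of the changes below was not tested.

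Above 0.1 FPKM there were 48 histone genes and above 5 FPKM 15, in place of 25. In the order *dpy-27(RNAi)*, *cec-4* and *met-2 set-25*, the number past 1.5-fold was 8, 9 and 11. A limit of 2-fold gave 3, 5 and 4 of the same 25. With 0.1 FPKM added in place of 1, the counts were higher, at 9, 11 and 15. Centred on the median of all genes, they were 8, 9 and 13. The ratio to the mean of the other 2 groups, chosen after seeing the data, gave 5, 5 and 6. Among the 15 genes averaging above 5 FPKM, the counts were 5, 6 and 7. That list is shorter as well, so these smaller counts do not mean a smaller share. For these other limits and settings, no share of all genes was worked out, so the counts have no background beside them. Without a filter the median was 0 for *dpy-27(RNAi)* and for *cec-4*, since many genes are at 0. Centring on all genes moved the median in *cec-4* to -0.36. Centring on genes at 100 to 1000 FPKM, also chosen after seeing the data, moved it to 0.25 in *met-2 set-25*.

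Centred on all genes, the log2 ratios of sums in *cec-4* were -0.35 for H2A, -0.34 for H2B, -0.099 for H4, -0.14 for H3.3-like genes and -0.44 for all members, and -0.60 for H3 in *met-2 set-25*. Without the highest copy, the log2 ratios of sums in *dpy-27(RNAi)* were -0.61 for H2A, -0.17 for H2B, -0.52 for H3, -0.45 for H4, 0.12 for H3.3-like genes and 0.019 for CENP-A. In *cec-4* they were -0.52, -0.69, -0.47, -0.87, 0.22 and -0.14 in that order, and -0.36 for linker genes. The double mutant *met-2 set-25* had -0.38, 0.53, -0.14 and -0.17 for H2A, H2B, H3 and H4, 0.0044 for linker genes and 3.63 for CENP-A. Ratios of sums carry no added 1 FPKM, so 3.63 is *cpar-1* alone on that scale. With 1 FPKM added, the same gene was at 2.58, so the larger value comes from the scale. Of 288 values of named genes under another pseudocount or either centring, none past 1.5-fold turned and 49 moved without crossing it. Another 22 newly passed it. With 0.1 FPKM added these include *his-61* (0.76), *his-62* (0.74) and *his-38* (0.74), higher in *met-2 set-25*. They also include *hil-6* (-1.11), *his-73* (-0.71) and *his-68* (-0.70), lower in *cec-4*. Another 6 values came back within it. All 6 were under the centring on genes at 100 to 1000 FPKM: *htz-1* (-0.56), *his-35* (-0.47), *his-32* (-0.58) and *his-2* (-0.46) in *met-2 set-25*, and *his-60* (-0.58) and *his-59* (-0.55) in *cec-4*. That centring left 10 and 8 genes past 1.5-fold there.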

Other observations

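The other 3 groups were also set against each other, without the control. Between *cec-4* and the group labelled *dpy-27(RNAi)*, 4 of the 25 histone genes were past 1.5-fold: *hil-1* and *hil-7* were higher in *cec-4*, and *hcp-3* and *his-74* lower. This compares with 19.6% of all genes. Between *met-2 set-25* and the group labelled *dpy-27(RNAi)*, *his-74*, *cpar-1*, *hil-1*, *hil-7*, *hil-3* and *his-61* were higher and none lower, beside 22.5% of all genes. Between *met-2 set-25* and *cec-4*, *his-74*, *cpar-1*, *his-32*, *his-60*, *his-61* and *his-62* were higher and *his-3* lower, beside 22.9% of all genes. In both of the last, *cpar-1* was in the list through *met-2 set-25* alone and had to be higher. *his-24*, *hil-2* and *htz-1* were within 1.5-fold in each of these ratios, whereas each was past 1.5-fold below the control in the *cec-4* and *met-2 set-25* comparisons.

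The control was the highest of the 4 groups for 10 of the 25 histone genes, of which *his-31* passed the 1 FPKM limit through the control alone, and the lowest for 3. Over all 16438 genes it was the highest for 24.1% and the lowest for 37.6%.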
